A study of Mus musculus with 3 samples.

Results

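Prokineticins are small secreted ligands, and the Tshz genes encode zinc finger factors related to the fly protein Teashirt. The genes described are the 2 prokineticins Prok1 and Prok2, their receptors Prokr1 and Prokr2, and the 3 factors Tshz1, Tshz2 and Tshz3. They were looked up by exact gene name in a deposited list of 19979 chromatin peaks of the zinc finger transcription factor Sp9, and listed peaks within 100 kb of theirs were added. Of these 7 genes, 5 carried at least 1 listed peak, with 6 peaks in all and 3 neighbouring peaks. Among all 21900 protein-coding genes, 55.4% had a listed peak named for them. The list names 13383 genes in total. The genes were chosen with earlier results of these data known.

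The chromatin came from olfactory bulbs of CD1 mice taken between postnatal days 0 and 2, with no allele or treatment named. It was crosslinked with 1% formaldehyde for 10 min, sheared to fragments of 200 to 1000 bp and read as paired ends of 150 bases. Libraries were 2 immunoprecipitations with a homemade antibody against Sp9 and 1 input without antibody. The tissue is whole bulb, so a peak does not say in which cell type Sp9 sat. The list gives 1 score per shared peak and no value per library, so no value below has an error between replicates and no test between samples exists. Read depth is unknown. Scores ran from 80.01 to 3139.09 with a median of 210.06, are the authors' own, and are used only to rank peaks within the list.

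Prokineticin signalling steers neuroblasts that leave the subventricular zone for the olfactory bulb. Prok2 is made in the bulb, Prokr2 sits on the migrating cells, and mice that lack either have small bulbs. Both receptors are G protein-coupled and act largely through Gq, phospholipase C and calcium. Tshz1 is needed for the maturation and radial migration of bulb interneurons, and Prokr2 is among the genes that depend on it. In humans, changes in PROK2 or PROKR2 are a cause of Kallmann syndrome, in which an absent or small olfactory bulb goes with a lack of the neurons that make gonadotropin-releasing hormone. Sp factors bind GC boxes and related GT boxes in DNA through their zinc fingers.

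RefSeq windows of the 250 bases before the transcript start (build GRCm38.p6) were at hand for 6 of the 7 genes, in 7 windows. They are shown because Sp factors read GC-rich letters, and because Prokr2 and Prokr1 differ in listed peaks while both hold such letters. Prokr2, Prokr1, Prok2 and Tshz3 are shown 5′ to 3′ in the direction of the gene, with each match to GGGCGG or GGGTGG on either strand in capitals (CCGCCC and CCACCC are the other strand).

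Prokr2 (chr2:132385448-132385697, minus strand): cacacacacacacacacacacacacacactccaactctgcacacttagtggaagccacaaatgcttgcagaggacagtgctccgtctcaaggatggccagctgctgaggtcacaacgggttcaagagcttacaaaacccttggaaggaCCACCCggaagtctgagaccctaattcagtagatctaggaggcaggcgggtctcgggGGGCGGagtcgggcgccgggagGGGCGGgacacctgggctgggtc

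Prokr1 (chr6:87590744-87590993, minus strand): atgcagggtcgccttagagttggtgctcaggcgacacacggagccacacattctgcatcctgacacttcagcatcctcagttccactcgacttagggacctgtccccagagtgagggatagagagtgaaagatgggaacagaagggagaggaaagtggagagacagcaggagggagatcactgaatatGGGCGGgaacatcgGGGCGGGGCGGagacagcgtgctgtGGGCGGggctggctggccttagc

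Prok2 (chr6:99726393-99726642, minus strand): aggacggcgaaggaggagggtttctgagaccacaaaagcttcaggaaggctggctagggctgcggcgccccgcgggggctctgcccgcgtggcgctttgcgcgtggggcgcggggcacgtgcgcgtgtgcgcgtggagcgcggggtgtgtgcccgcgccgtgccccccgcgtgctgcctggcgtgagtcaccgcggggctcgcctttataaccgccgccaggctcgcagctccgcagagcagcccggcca

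Tshz3 (chr7:36697868-36698117, plus strand): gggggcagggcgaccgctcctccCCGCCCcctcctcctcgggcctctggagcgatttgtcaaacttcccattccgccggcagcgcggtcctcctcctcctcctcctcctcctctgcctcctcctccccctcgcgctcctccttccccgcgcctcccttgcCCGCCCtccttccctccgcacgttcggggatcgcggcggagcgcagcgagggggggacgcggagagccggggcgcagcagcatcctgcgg

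The window of Prokr2 held 2 matches to GGGCGG, starting 45 and 23 bases before the transcript start, and 1 to GGGTGG on the other strand 102 bases before it. That of Prokr1 held 4 matches to GGGCGG, at 62, 48, 43 and 23 bases, of which the middle pair overlap by a base. Tshz3 had 2, at 227 and 90 bases, Tshz2 had 1, at 62 bases, and neither the window of Prok2 nor the 2 windows of Prok1 held any match to either motif. Of 32851 RefSeq windows of the same length, 32.7% held GGGCGG, 28.1% held GGGTGG, 48.8% held at least 1 of them, and 4.09% held 4 or more matches to GGGCGG. Of the genes with a window, Prokr2, Tshz2 and Tshz3 had both matches and a listed peak, and Prok1 had neither. Prokr1 had the most matches and no listed peak, while Prok2 had no match and 1 listed peak. The window of Prok2 was still GC-rich, at 73.6% G or C, and that of Tshz3 had 74%, against a median of 52.4% over all windows. Prokr2 had 59.2%, Prokr1 58.8%, Tshz2 48.8% and the windows of Prok1 50.4 and 41.6%. The peak list is in the older build mm9, whose positions cannot be set beside these windows, so it is not known whether any listed peak covers them. A match of letters is a description and not a binding site.

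Each listed peak carries 1 gene name from the authors, and that gene is here called linked to the peak. Neither the distance to the gene nor the part of the gene that a peak covers is given. Among all 21900 protein-coding genes, 55.4% had a linked peak, 35.4% a peak at or above the median score, 19.2% one at or above the upper quartile of 353.56, and 15.5% had at least 2 linked peaks. All 3 Tshz genes had a linked peak. Of the 4 prokineticin genes, the ligand Prok2 and the receptor Prokr2 did, whereas the ligand Prok1 and the receptor Prokr1 had none. Peaks at or above the median belonged to 4 of the 7 genes, namely Prok2, Tshz1, Tshz2 and Tshz3, and a peak at or above the upper quartile to Tshz3 alone. A list of 7 genes allows no statement on whether these shares differ from the background.

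Prok2, the ligand that attracts neuroblasts, had 1 listed peak, from 99675849 to 99676838 on chromosome 6 (mm9), which scored 242.64. It was 989 bp wide, close to the median width of 986 bp, and its score was above 56.9% of all peaks. Prokr2, the receptor, also had 1, from 132210509 to 132211586 on chromosome 2, which scored 96.02. At 1077 bp it was wider than 60.2% of the peaks, yet only 9.9% of the peaks had a lower score. The ligand and receptor known to act together in the bulb both had a listed peak, as did 55.4% of all coding genes. That of the receptor lay near the bottom of the list and that of the ligand near the middle.

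**Figure D1:**
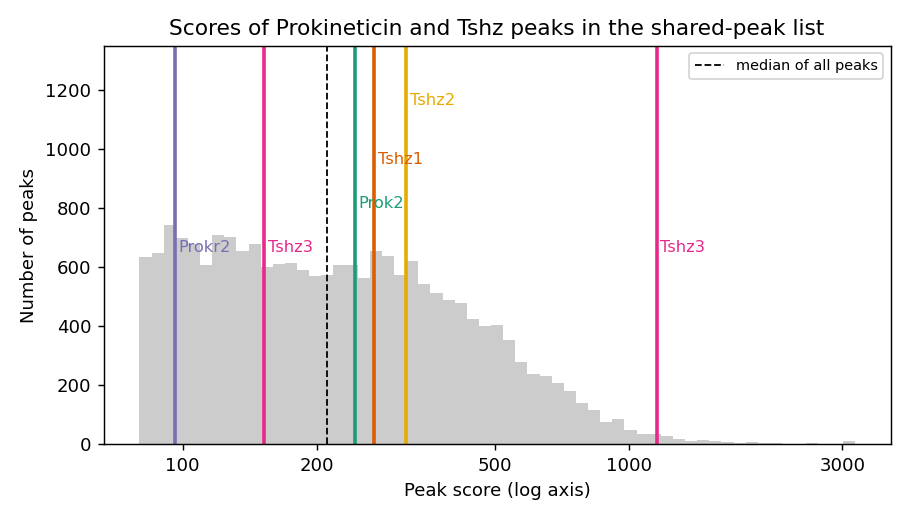
Grey bars count all 19979 listed peaks by score (log axis), and coloured lines mark the 6 peaks of the Prokineticin and Tshz genes. The peak of Prokr2 (96.02) and the lower peak of Tshz3 (152.27) lie left of the median (dashed line), those of Prok2, Tshz1 and Tshz2 lie just right of it, and the higher peak of Tshz3 (1151.24) stands in the thin upper tail.

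Tshz3 had the highest peak of the 7 genes, with a score of 1151.24 on chromosome 7 from 37480062 to 37483785. It was the 134th of all peaks from the top, above 99.3% of them, and with 3723 bp it was wider than 99.8%. Tshz3 is best known for its part in smooth muscle of the ureter and in cortical projection neurons. Its other peak scored 152.27, was 933 bp wide and lay 344 kb away, from 37827709 to 37828642, with no other listed peak between them. Tshz2 had 1 listed peak, from 169458622 to 169459782 on chromosome 2. It scored 316.83, above 70% of the peaks, and was 1160 bp wide.

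Tshz1, the factor of interneuron maturation, had 1 listed peak, from 84254292 to 84255799 on chromosome 18, whose score of 268.28 was above 61.8% of the peaks. Its width of 1507 bp exceeded that of 87% of the peaks, so that it ranked higher by width than by score. The peak of Prokr2 and both peaks of Tshz3 also did, while those of Prok2 and Tshz2 did not. For the higher Tshz3 peak the difference was small, 99.8 against 99.3%. How many of all listed peaks rank higher by width than by score was not counted. The highest scores ran from Tshz3 over Tshz2, Tshz1 and Prok2 to Prokr2. Ranked by score per kb of width, Tshz1 fell from above 61.8% to above 35.9% of the list and came below Prok2, at 59.9%. Without replicate values it cannot be said whether neighbours in this order differ beyond error. When each coding gene with a linked peak was represented by its highest peak, Tshz3 lay above 99.2% of them, Tshz2 above 59.1%, Tshz1 above 49%, Prok2 above 43.4% and Prokr2 above 5.05%.

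**Figure D2:**
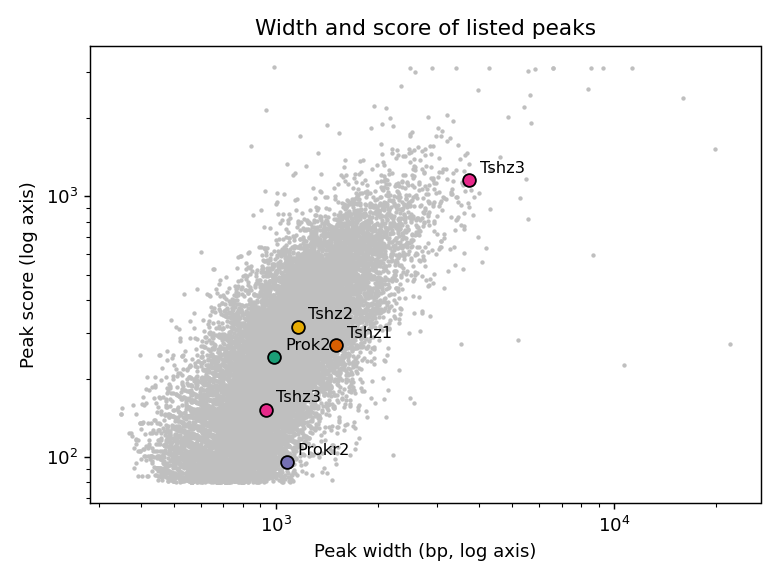
Each grey point is a listed peak, by width in bp and score (both axes log), and the coloured points are the 6 peaks of the Prokineticin and Tshz genes. The higher peak of Tshz3 is both wide (3723 bp) and high, while the peak of Prokr2 (1077 bp, score 96.02) sits at the lower edge for its width.

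Listed peaks were sparse around the Tshz genes. Around each of the 4 peaks of Tshz genes, only 1 other listed peak lay within 500 kb. Of all listed peaks, 2.88% had at most 1 other within that distance, and the median was 10 others. The peak of Prok2 had 5 others within that distance and that of Prokr2 had 11. For Tshz2 the nearest listed peak was that of Zfp217, 496 kb away, and on the other side that of Zfp64 at 677 kb. Of all listed peaks, 99.1% had a nearer neighbour than that of Tshz2 did, and the median distance to the nearest peak was 29.6 kb. The nearest neighbour of either Tshz3 peak was the other one, and beyond them lay Zfp507 at 670 kb and Zfp536 at 525 kb. On the start side of the Tshz1 peak the next listed peak, named 4921531P14Rik, lay 684 kb away. The span between the listed peaks of the nearest linked coding genes was 1543 kb around Tshz3, 1174 kb around Tshz2 and 1176 kb around Tshz1. It was 505 kb around Prok2 and 314 kb around Prokr2. The Tshz3 span passes over 1 coding gene without a linked peak, Gm36722, and the other spans named here over none. Inside these spans, own peaks included, lay 5 listed peaks for Tshz1, 2 for Tshz3 and 1 each for Tshz2, Prok2 and Prokr2. The distances are a description of 6 peaks, and their difference between the families was not tested. They were not set against the number of genes nearby.

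On its other side, Tshz1 had the closest neighbour of all. A peak named for Zadh2, the gene of a prostaglandin reductase, began 660 bp beyond the end of the Tshz1 peak and ran from 84256459 to 84258366. Its score of 617.89 lay above 93.3% of all peaks, against 61.8% for the Tshz1 peak. A gap of at most 1 kb to another listed peak was found for 7.93% of all peaks.

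Within 100 kb, the distance set for neighbours, 80.9% of all listed peaks had another peak, and the median was 2. The Zadh2 peak was the only such neighbour among the Tshz genes. Prok2 had 2, both on the start side: Gpr27, an orphan G protein-coupled receptor, with a score of 834.57 and a gap of 31.8 kb, and Eif4e3, a cap-binding protein, with 178.09 and a gap of 59 kb. The Gpr27 peak lay above 97.7% of the list, against 56.9% for the Prok2 peak. Prokr2 had none within 100 kb. Its closest neighbour, just outside that distance, was the peak of Cds2, an enzyme of phospholipid synthesis, at 121 kb with a score of 464.26, and Gpcpd1 followed on the other side at 192 kb with 256.39. Prok2 and Tshz1 were the only genes here with a neighbour within 100 kb, and for both the highest peak there carried another gene's name. How common this is over all listed peaks is not given here.

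**Figure D3:**
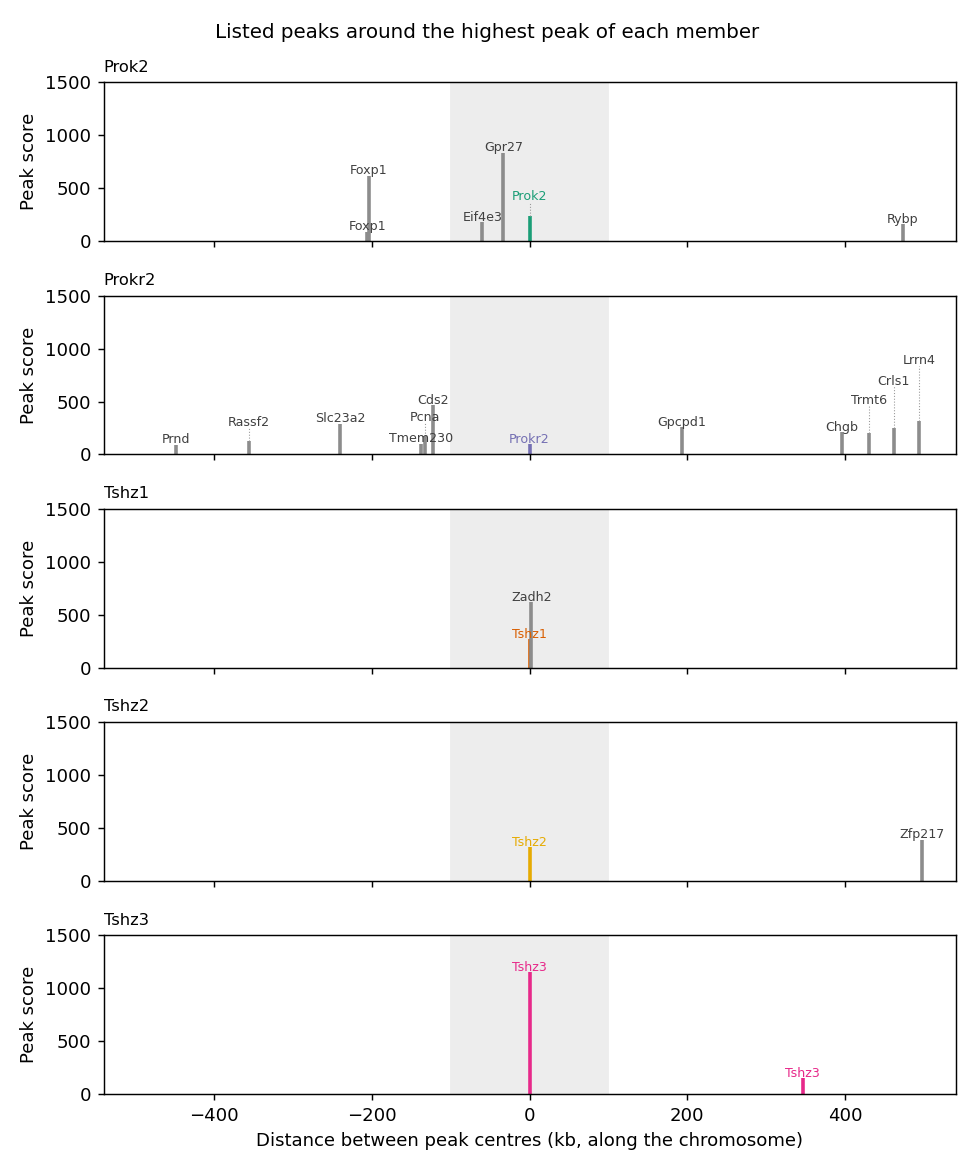
For each gene with a linked peak, bars give the score of every listed peak within 500 kb of its highest peak, by distance between centres in kb, with the gene the authors named; the grey band spans 100 kb on each side. The 3 Tshz panels hold 1 other peak each (Zadh2 beside Tshz1, Zfp217 at the edge for Tshz2, the lower Tshz3 peak), whereas those of Prok2 and Prokr2 hold 5 and 11.

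Prok1 and Prokr1 had no linked peak. By RefSeq gene order, the 3 coding genes on each side of Prok1 were Kcna10, Cym, A630076J17Rik, Lamtor5, Slc16a4 and Rbm15, of which Kcna10 (90.35), Lamtor5 (90.75) and Rbm15 (113.23) had a linked peak, all below the median. Around Prokr1 they were Gkn3, Bmp10, Arhgap25, Aplf, 1810020O05Rik and Efcc1, of which Gkn3 (80.61) and Efcc1 (345.57) had one. No listed peak lay between those of Kcna10 and Lamtor5, a span of 118 kb that holds Prok1 by gene order, or between those of Gkn3 and Efcc1, a span of 322 kb that holds Prokr1. The span around Prokr1 is similar in length to the 314 kb around Prokr2, and that around Prok1 is the shortest of the 7. These lengths are not alike in kind, as the Prokr1 span passes over 2 coding genes without a linked peak on each side. The Prok1 span passes over 2 such genes on the start side, and that of Prokr2 over none. In all, 5 of these 12 flanking genes had a linked peak and 1, Efcc1, had a peak at or above the median, where the shares over all coding genes were 55.4 and 35.4%. Around the 5 genes that had a peak of their own, 26 of 30 flanking genes were linked and 18 had a peak at or above the median. Flanking genes are not independent of each other, and no test was made. With the depth unknown, the lack of a listed peak does not show that Sp9 was absent from Prok1 or Prokr1.

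All 6 genes that flank Prok2 had a linked peak. Foxp1, a forkhead factor of striatal and bulb neurons, reached 618.84 and was listed with 3 peaks, and Rybp, a Polycomb protein, Shq1 and Gxylt2 had 285.72, 269.97 and 346.48. Around Prokr2, 5 of 6 were linked, among them the replication clamp Pcna (172.62), Tmem230 (99.10) and the secretory granule protein Chgb (208.92), while Shld1 was not. Genes beside the Tshz factors had linked peaks in 15 of 18 cases, where 55.4% of all coding genes had one. For Tshz1 these were Mbp, the myelin basic protein (151.57), Zfp236 (119.51), Zfp516 (183.05), Zadh2 and Zfp407 (248.28), but not Cndp1. For Tshz2 they were Atp9a (273.62), the zinc finger factor Sall4 (296.06), Zfp64 (418.91), Zfp217 (388.99) and Cyp24a1 (110.03), but not Bcas1. For Tshz3 they were Dpy19l3 (242.83), Zfp507 (404.87), Zfp536 (442.71), Uri1 (467.90) and cyclin E1, Ccne1 (634.51), but not Gm36722.

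Genes that work with the prokineticin receptors were taken from a list of 16 signalling genes, of which 13 had a linked peak (81.2%, against 55.4% of all coding genes) and 12 a peak at or above the median (75%, against 35.4%). The highest peaks belonged to the G protein subunit Gnas (895.58), the calcium channel of internal stores Itpr1 (610.76) and the Gq subunit Gnaq (579.57). Its close relative Gna11 had 524.94, and Mrap2, an accessory protein of several such receptors, had 316.57. The phospholipases Plcb2 and Plcb4 and the kinase gene Mapk3 had none. Most of these genes serve many receptors, so the count is not particular to prokineticin signalling.

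Among 27 other receptors for neuropeptides, 18 had a linked peak (66.7%, against 55.4% of all coding genes). A peak at or above the median was linked to 8 of them (29.6%, against 35.4%). Nmur2, a neuromedin U receptor, was highest with 836.75, followed by the tachykinin receptors Tacr1 (568.00) and Tacr3 (479.73). The score of Prokr2 lay below those of 14 of the 18 and above those of 4, namely Qrfpr (93.71), Galr2 (87.49), Npy5r (84.69) and Tacr2 (84.53). Of 19 other genes tied to Kallmann syndrome, lack of gonadotropin-releasing hormone or bulb development, 14 had a linked peak (73.7%, against 55.4%). A peak at or above the median was linked to 11 of these 19 (57.9%, against 35.4%). The chromatin remodeller Chd7 (1099.65), Il17rd (648.49) and the fibroblast growth factor receptor Fgfr1 (519.07) were highest, and Prok2 and Prokr2 ranked below 11 and 13 of the 14.

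The Tshz factors carry a homeodomain beside their zinc fingers. Of 10 other genes of that kind, 9 had a linked peak (90%, against 55.4% of all coding genes). A peak at or above the median was linked to 7 of the 10 (70%, against 35.4%). Zhx1 (730.82), Zfhx3 (416.95) and Zhx3 (399.17) were the highest and Zfhx2 had none. The score of Tshz3 was above those of all 9, while Tshz1 and Tshz2 each lay above 5 and below 4. Of 7 proteins known or likely to act with Teashirt factors as cofactors, 6 had a linked peak (85.7%), all at or above the median. The shares over all coding genes were 55.4 and 35.4%. The corepressor Ctbp2 (842.80), the histone deacetylase Hdac2 (626.66) and Set (553.61) led, and Myocd, a smooth muscle coactivator, had none. The lists are short, share Tacr3, Kiss1r and Gnrhr between the receptor and Kallmann lists, and were chosen with earlier results known, and none of these shares was tested.

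**Figure D4:**
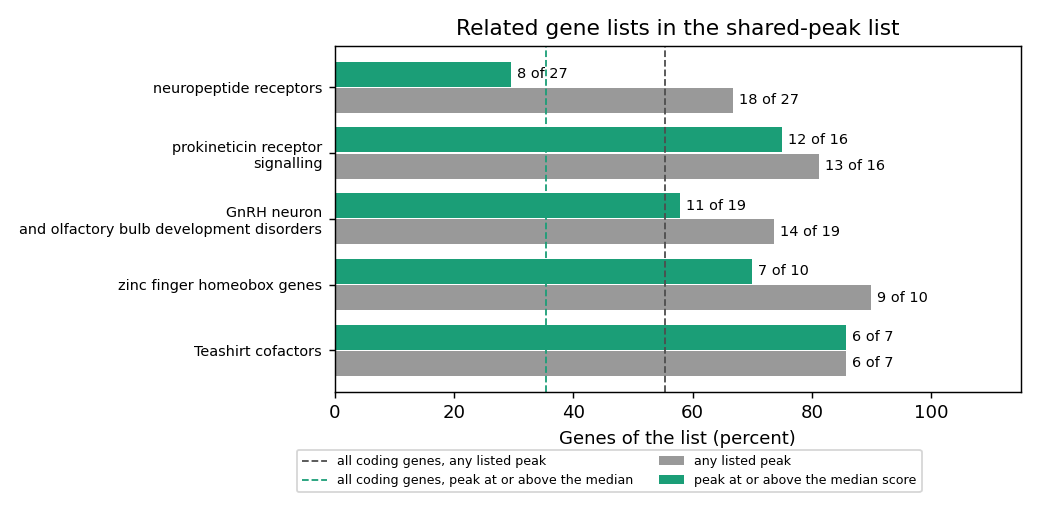
Bars give the percentage of genes of each related list with any listed peak (grey) and with a peak at or above the median score (green), with counts beside them; dashed lines give the same shares of all coding genes, 55.4 and 35.4%. Neuropeptide receptors lie above the first line (18 of 27) and below the second (8 of 27), and the other 4 lists lie above both.

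Genes with the same number of linked peaks and the nearest highest score, the only likeness the list allows, were Maml2 (96.05), Ccnq (96.14) and Omp (96.14) for Prokr2. For Prok2 they were Pacsin2 (242.67), Sel1l3 (242.58) and 5730455P16Rik (242.54). For Tshz1 they were Olfr143 (268.29), P3h4 (268.25) and Tmem196 (268.24), and for Tshz2 Kcns3 (316.77), U2af1 (316.89) and Zbtb41 (316.89). Tshz3, with 2 peaks and a score in the sparse upper range, came nearest to Zfp36l2 (1149.05), Sox12 (1160.57) and Cebpa (1123.82). This is a likeness over a single list and 1 score per gene.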

How the data were processed

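The authors deposited 1 list of peaks named as shared, with chromosome, start, end, a peak score and 1 gene name per peak, per the file header. The submitters' processing notes name Bowtie2 2.2.4, MACS 1.4.2 and mm9, without roles or settings. Not given in the sources used here are the way 2 immunoprecipitations gave 1 interval and 1 score, the score's formula, the annotation behind the names, and whether starts count from 0 or 1.

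From the list were computed peak width (end minus start), the share of peaks with a strictly lower score, gaps between peak edges, and peaks per gene (Python 3.11.15, pandas 2.3.3). Names were matched to RefSeq GRCm38.p6 by symbol (12806 of 13383) or by a synonym held by only 1 gene (527), and 50 stayed unmatched. That table gave gene class and order only. Its 21900 coding genes were the background. The motifs and the window of 100 kb were set with the gene lists. The genes named are the 7 genes, those within 100 kb, 3 flanking coding genes on each side, the 3 highest of each related list and the 3 nearest in pattern; other genes named from the lists were chosen after their values were seen. Members and lists were chosen with earlier results of these data known. The neighbour and rank functions were tested on simulated data. Peaks at or above the median or upper quartile, other windows, joined peaks, synonyms and other rankings were tried as alternatives. Depth per library is unknown.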

Additional observations from a re-analysis of the deposited data

How the results depend on the processing

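With peaks at or above the upper quartile only, 1 of the 7 genes (Tshz3) and 1 peak remained, against 5 genes and 6 peaks as deposited; at or above the median, 4 genes and 4 peaks did. A window of 200 kb raised the neighbouring peaks from 3 to 7, the additions all beside Prokr2, and 50 kb left 2. Counting synonyms, joining peaks under 1 kb apart and measuring 100 kb between centres changed no count. Ranked by score per kb of width, the peak of Tshz3 fell from above 99.3% to above 75.9% of the list, Tshz1 from 61.8 to 35.9% and Prokr2 from 9.9 to 0.766%, while Prok2 had 59.9% and Tshz2 67.8%. Without unplaced sequences and dense runs the ranks were 56.4% for Prok2, 9.75% for Prokr2, 61.3% for Tshz1, 69.6% for Tshz2 and 99.4% for Tshz3. As deposited they were 56.9, 9.9, 61.8, 70 and 99.3% in the same order. No paired analysis was possible because the list holds no value per library, and leaving out a replicate was not run for the same reason. Protein sequences were not used here. Depth is unknown, so the lack of a listed peak at Prok1 or Prokr1 sets no limit on binding there.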

Other observations

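Zinc finger genes stood beside all 3 Tshz genes and had linked peaks. Within 5 coding genes on either side, by RefSeq gene order, the names that begin with Zfp or Sall were 9, and all 9 had a linked peak, with 23 peaks in all; among all 401 coding genes with such names, 60.1% had one. Beside Tshz1 were Sall3, Zfp236, Zfp516 and Zfp407, beside Tshz2 Sall4, Zfp64 and Zfp217, and beside Tshz3 Zfp507 and Zfp536. All of them but Sall3 are among the flanking genes of the Tshz factors counted above, so the counts are not separate. Sall3, a spalt factor of interneurons of the bulb, had the highest of these peaks, 636.90 with a width of 3051 bp on chromosome 18 from 81182076 to 81185127. Zfp64 had 5 peaks, between 89.88 and 418.91, and Zfp536, a repressor of neuronal differentiation, had 4, between 161.02 and 442.71. None of the 23 reached the 1151.24 of Tshz3. These genes were picked after their values had been seen, and their counts were not tested.

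Between the listed peak of Zfp516 and that of Tshz1 lay 4 further peaks, all with the names of 2 Rik transcripts. They were 4930592I03Rik, with 134.87 and 115.73, and 4921531P14Rik, with 126.20 and 96.09, at 684 to 1127 kb from the Tshz1 peak and all below the median score. The names do not say which gene, if any, these regions act on.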
